A study of Homo sapiens with 6 samples.

Results

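Collagens are the main fibrous proteins of the extracellular matrix. They were followed here as the 41 protein-coding genes, of 30651 genes in the count table, whose symbol has the form COL, a type number, A and a chain number. RNA of PC-3 cells, a human prostate cancer line derived from bone, had been sequenced in 6 libraries, 3 of a control (Ctrl, with columns prefixed NC) and 3 of a group named after MTA1 (with columns prefixed shMTA1, as for a short hairpin RNA). MTA1 belongs to NuRD, a complex that remodels chromatin and removes acetyl groups from histones, and the comparison asks which genes differ when it is lowered. All cells were grown in DMEM/F12 with fetal bovine serum. The labels name lentivirus and the screening of stable clones, but not the number of hairpins or clones or whether the libraries came from separate cultures, so the p-values cover the spread among these libraries alone, and that spread may be technical.

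Each collagen molecule is a trimer of chains wound into a triple helix, and chains of one type usually have to be made together. Fibrillar collagens form the banded fibres of connective tissue, network collagens such as type IV make the sheet of basement membranes, type VI makes beaded filaments around cells, type VII anchors epithelia to the tissue beneath, and the FACIT class sits on the surface of fibrils. The transmembrane class spans the cell membrane. Fibroblasts make most of the collagen of a tumour, while carcinoma cells make basement membrane and other chains of their own.

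The libraries held 29909172 to 33849262 counts. MTA1 had 1185, 1331 and 1352 counts in Ctrl against 528, 572 and 519 in the MTA1 libraries, which left 43.4% of the control level, so a gene called higher is higher in the libraries with less MTA1. Of the epithelial genes expected of PC-3 cells, KRT8 stood at 1886 ± 43.9 and KRT18 at 1343 ± 59.4 CPM in Ctrl (CPM, reads of a gene set against the TMM-corrected total of its library, mean ± SD, n = 3). KLK3 had at most 1 count in any library.

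Most of the collagen genes that PC-3 cells express were higher in the MTA1 group. Collagen genes together took 0.168%, 0.171% and 0.174% of the counts in the Ctrl libraries and 0.274%, 0.276% and 0.293% in the MTA1 libraries. Their summed level went from 1753 ± 30.1 to 2745 ± 96.3 CPM, and without COL7A1, the most abundant of them, from 853 ± 8.63 to 1286 ± 33.1 CPM. In both sums the lowest MTA1 library lay above the highest Ctrl library.

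Of the 41 genes, 29 had enough reads to be tested, and 15 passed as higher and 6 as lower (edgeR's quasi-likelihood test, adjusted p under 0.05 over all tested genes), with a median log2 fold change of 0.32. Over all 15423 tested genes, 29.5% passed as higher and 28.6% as lower, and the median was 0.002. A gene that entered the test through one group only had to differ. A plainer count comes from the 19 collagen genes with a mean of 2 CPM or more over all libraries. That mean spans both groups, so this count is not free of such entry. COL5A3 reached it through the MTA1 group alone (1.04 CPM in Ctrl, 12.5 CPM in the MTA1 group). COL15A1, called lower, missed it (2.31 and 1.16 CPM). Of the 19, 15 rose, 2 fell and 2 did not pass, with a median of 0.64. Among all genes at this level 33.9% rose and 32.1% fell, with a median of 0.006. All 15 lay without overlap above Ctrl, as did 35.8% of all genes at this level. A called rise of at least 1.5-fold was seen in 10 of the 19, against 8.46% of all genes at this level. The 15 rises and 2 falls kept their calls under every alternative scaling, filter and test and without any single library, except that 3 of the rises (COL4A1, COL4A5 and COL16A1) ended when a fold above 1.2 was required.

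**Figure D1:**
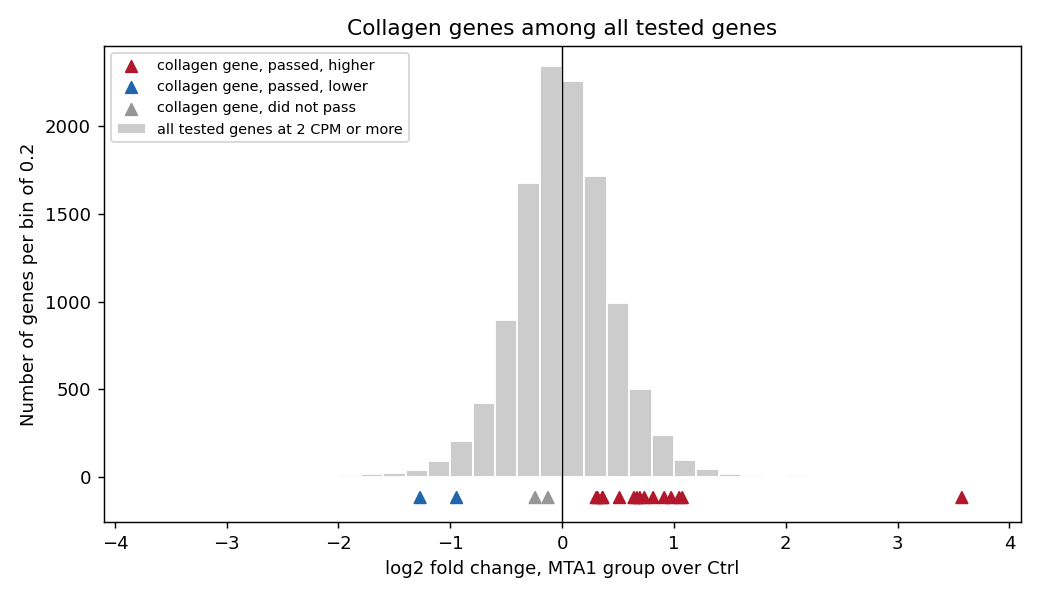
Histogram of log2 fold changes (MTA1 group over Ctrl, x axis) of all tested genes with a mean of 2 CPM or more, as the number of genes per bin of 0.2 (y axis), with the 19 collagen genes at this level as triangles below it, coloured by their call. The collagen genes run from -1.27 to 3.58, and 15 of the 19 lie to the right of 0 and passed.

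**Figure D2:**
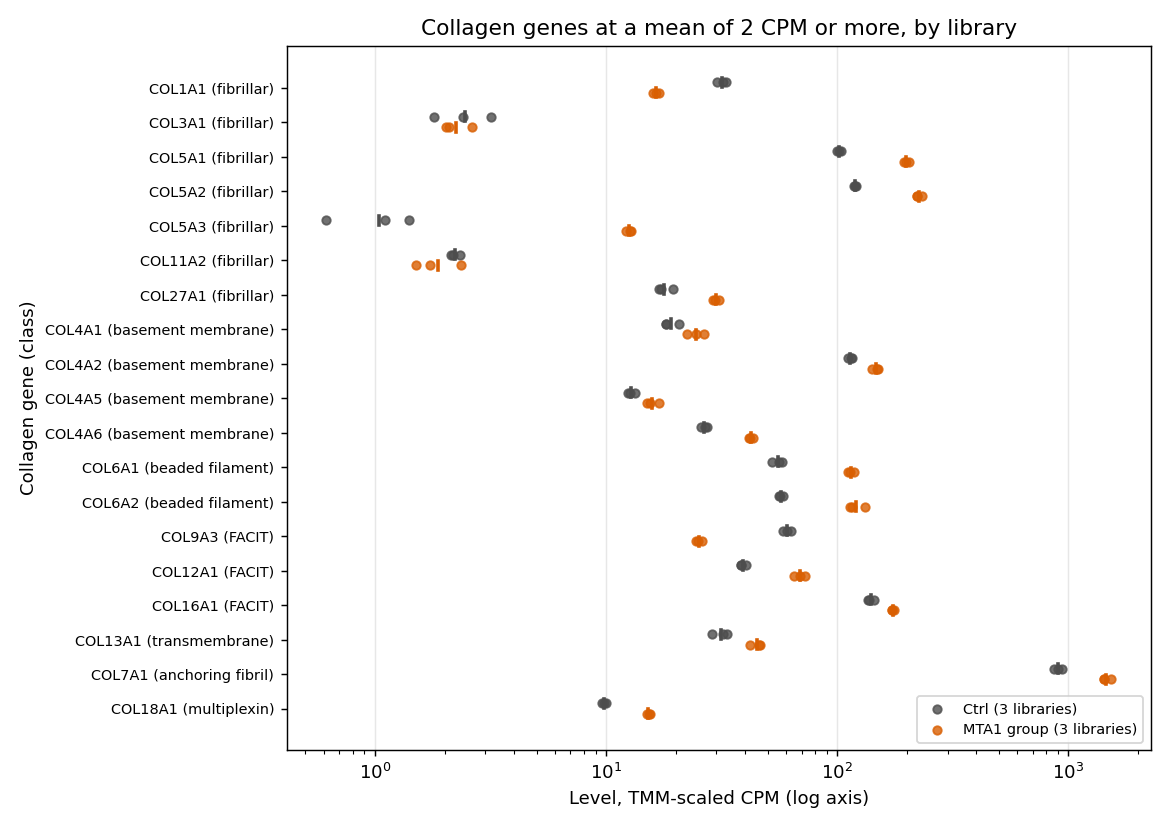
Level of each of the 19 collagen genes in TMM-scaled CPM (log axis), with 1 dot per library and a short line at the mean of the 3 libraries of a group. COL7A1 is the most abundant in both groups, COL5A3 has the widest gap between groups, and the libraries of the groups overlap in COL3A1 and COL11A2 only.

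COL7A1, the only chain of type VII collagen and the substance of anchoring fibrils, dominated the family. It stood at 866, 901 and 935 CPM in Ctrl and at 1422, 1421 and 1531 CPM in the MTA1 group. Each MTA1 library was far above each Ctrl library, and the rise was 1.62-fold (log2 fold change 0.70 ± 0.044 SE, adjusted p = 5.6e-11). The share of COL7A1 among all collagen counts was 50.1% to 52.3% for the Ctrl libraries and 52.8% to 53.6% for the others. In FPKM, the deposited values per kilobase of transcript, it was at 69.8 ± 2.85 in Ctrl, and the next gene, COL5A2, was at 14.1 ± 0.201. MIR711, a microRNA inside the gene, shares 0.325% of its exon bases and has no row of its own in the count table.

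The RefSeq promoter table (GRCh38.p14) holds 30 of the 41 collagen genes. The 250 bases before the COL7A1 start (chr3:48595330-48595579, minus strand) are shown because no collagen gene had more reads. Capitals mark matches, on either strand, of GGGCGG (the core of a GC box), CCAAT and TATAAA.
COL7A1: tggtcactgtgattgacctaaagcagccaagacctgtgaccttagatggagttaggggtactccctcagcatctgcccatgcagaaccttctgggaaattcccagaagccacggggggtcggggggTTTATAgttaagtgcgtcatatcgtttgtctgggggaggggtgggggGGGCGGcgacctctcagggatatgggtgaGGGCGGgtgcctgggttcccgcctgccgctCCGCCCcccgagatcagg
This window holds 3 matches of GGGCGG and 1 of TATAAA. Of 35116 promoter windows of this length, 42.6% hold GGGCGG, 32.0% CCAAT and 10.7% TATAAA. Of the 30 collagen genes with an entry, 19 hold the first of these, 8 hold CCAAT and 5 hold TATAAA, each read from the start with the lowest coordinate. The first was present in 11 of the 13 with an entry that rose at 2 CPM or more, where COL4A1 and COL4A2 share bases and count separately, and in 3 of the 4 with an entry that were called lower at any level. These are matches of letters and show no binding.

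Fibrillar collagens went in both directions. Of 11 listed, 9 were tested, 4 rose and 1 fell, where 29.5% of all tested genes rose and 28.6% fell. The 3 chains of type V, which controls the diameter of fibrils, all rose, and the major chain of type I, the main collagen of bone and skin, fell.

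COL5A3, the least common chain of type V, changed the most of all collagen genes. It had 19, 36 and 46 counts in Ctrl and 385, 404 and 377 in the MTA1 group. This was 0.615, 1.10 and 1.40 CPM against 12.6, 12.7 and 12.1 CPM, with the MTA1 libraries close together, the Ctrl libraries further apart in proportion and a wide gap between the groups. The rise was 11.9-fold (3.58 ± 0.18, adjusted p = 6.9e-14, 95% interval 9.38 to 15.2). An antisense gene, AC008742.1, overlaps 4% of its exon bases in GENCODE v29, has no row of its own in the count table, and the strand setting of the counting is not given in the sources used here.

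The common type V chains rose about alike. COL5A1 was at 101, 103 and 99.2 CPM in Ctrl and at 194, 198 and 205 CPM in the MTA1 group, a 1.97-fold rise (0.98 ± 0.040, adjusted p = 1.1e-13). COL5A2 was at 120.3, 119.8 and 117.8 CPM in Ctrl and at 220.1, 221 and 233 CPM in the MTA1 group, a 1.88-fold rise (0.91 ± 0.040, adjusted p = 2.7e-13). Neither gene had overlapping groups.

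The upstream 250 bases of COL5A1 (chr9:134641553-134641802, plus strand) and COL5A3 (chr19:10010505-10010754, minus strand) are set side by side because both chains belong to type V and rose by very different factors. Capitals mark the same motifs. COL5A2 is not in the table.
COL5A1: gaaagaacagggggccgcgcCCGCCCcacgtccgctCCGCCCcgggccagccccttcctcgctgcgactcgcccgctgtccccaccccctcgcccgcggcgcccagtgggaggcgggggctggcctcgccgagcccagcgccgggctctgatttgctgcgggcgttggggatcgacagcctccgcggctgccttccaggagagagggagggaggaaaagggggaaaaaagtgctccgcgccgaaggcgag
COL5A3: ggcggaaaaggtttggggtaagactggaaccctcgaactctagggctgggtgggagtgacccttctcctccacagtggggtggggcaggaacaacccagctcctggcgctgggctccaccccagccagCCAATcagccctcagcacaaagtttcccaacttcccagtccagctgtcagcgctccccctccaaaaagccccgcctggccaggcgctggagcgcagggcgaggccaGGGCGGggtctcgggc
COL5A1 has 2 GGGCGG matches and no CCAAT. COL5A3 has 1 of each. Neither holds TATAAA, and G and C make up 74.0% of the COL5A1 window and 66.0% of the COL5A3 window.

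COL27A1, a fibrillar chain of cartilage, also rose, from 19.45, 16.9 and 17.2 CPM to 30.6, 29.02 and 29.6 CPM (1.67-fold, 0.74 ± 0.059, adjusted p = 2.1e-09). The exception among the well-expressed fibrillar chains was COL1A1, the major chain of type I. It was at 32.9, 30.02 and 32.0 CPM in Ctrl and at 15.95, 16.5 and 16.9 CPM in the MTA1 group, so every MTA1 library held about the same, lower level. COL1A1 fell to 52.0% of the control level (-0.94 ± 0.056, adjusted p = 2.2e-11).

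Its partner chain COL1A2 was close to absent, with 57, 32 and 37 counts in Ctrl and 33, 25 and 23 in the MTA1 group. The groups overlapped and the fold change (-0.59 ± 0.26) did not pass (adjusted p = 0.060), but COL1A2 was called lower under 6 of the 19 alternatives, with adjusted p from 0.022 without Ctrl replicate 2 to 0.39 without Ctrl replicate 1 over all of them. COL3A1, the chain of type III, was at 3.17, 1.80 and 2.40 CPM in Ctrl and 2.62, 2.08 and 2.03 CPM in the MTA1 group and did not pass (-0.13 ± 0.19, adjusted p = 0.58). COL11A2, a cartilage chain, was at 2.33, 2.17 and 2.13 CPM in Ctrl and 1.51, 1.73 and 2.35 CPM in the MTA1 group (-0.24 ± 0.18, adjusted p = 0.25). COL2A1, the main collagen of cartilage, had 21 to 34 counts per library and did not pass (-0.28 ± 0.23, adjusted p = 0.31). COL11A1 (14 counts in all) and COL24A1 (24) were too low to test.

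Basement membrane collagen rose modestly. Of the 6 type IV chains, 5 were tested, 4 rose and 1 fell, against 29.5% and 28.6% of all tested genes. COL4A2 was the most abundant, at 114.1, 111.7 and 116 CPM in Ctrl and 141, 149 and 149.6 CPM in the MTA1 group, a 1.28-fold rise (0.36 ± 0.041, adjusted p = 2.4e-07). COL4A1 was at 20.7, 18.2 and 18.1 CPM in Ctrl and 22.4, 26.5 and 24.4 CPM in the MTA1 group, a 1.29-fold rise (0.36 ± 0.068, adjusted p = 0.00012). The groups did not overlap in either gene.

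These 2 genes lie head to head on chromosome 13, and a short shared region separates their starts. The 126 bases between the RefSeq starts (chr13:110307158-110307283, plus strand, COL4A2 to the right) are shown because both genes rose, by 1.28-fold and 1.29-fold.
COL4A1-COL4A2: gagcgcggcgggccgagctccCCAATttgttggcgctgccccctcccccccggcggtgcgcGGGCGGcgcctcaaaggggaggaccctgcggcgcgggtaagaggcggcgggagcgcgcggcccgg
The region holds 1 CCAAT and 1 GGGCGG, and 80.2% of its bases are G or C. Of promoter windows of this length, 21.1% hold CCAAT and 34.6% hold GGGCGG. The antisense genes COL4A2-AS1 and COL4A2-AS2 overlap 0.42% and 0.0726% of the exon bases of COL4A2, and neither has a row in the count table.

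The second pair, COL4A5 and COL4A6 on the X chromosome, also lies head to head. COL4A6 was at 26.7, 25.7 and 27.2 CPM in Ctrl and at 41.5, 43.1 and 41.9 CPM in the MTA1 group, a 1.59-fold rise (0.67 ± 0.050, adjusted p = 6.8e-10). COL4A5 was at 12.7, 13.3 and 12.4 CPM in Ctrl and at 15.1, 15.5 and 16.95 CPM in the MTA1 group, a 1.24-fold rise (0.31 ± 0.067, adjusted p = 0.00065). COL4A6 has 2 starts in the RefSeq table, 379 and 1415 bases from that of COL4A5.

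The pair of COL4A3 and COL4A4, known from the kidney filter, was barely transcribed. COL4A4 had 73, 44 and 42 counts in Ctrl and 27, 31 and 38 in the MTA1 group and passed as lower (-0.68 ± 0.25, adjusted p = 0.023). The call ended without Ctrl replicate 1 (-0.35, adjusted p = 0.22) and under several other alternatives. COL4A3 had 3 to 11 counts per library and was not tested.

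Type VI, the collagen of beaded filaments, rose in both of its abundant chains. COL6A1 was at 52.4, 55.9 and 57.8 CPM in Ctrl and at 113.5, 112 and 118 CPM in the MTA1 group, a 2.07-fold rise (1.048 ± 0.046, adjusted p = 3.1e-13). COL6A2, its neighbour on chromosome 21, was at 56.1, 58.2 and 56.5 CPM in Ctrl and at 115.5, 113.4 and 131 CPM in the MTA1 group, a 2.11-fold rise (1.08 ± 0.052, adjusted p = 1.0e-12). Neither gene had overlapping groups, and with COL5A3 they make up the 3 collagen genes at 2 CPM or more that rose by at least 2-fold. Such a rise was called in 2.85% of all tested genes, a wider set that includes those under 2 CPM.

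COL6A3, the large chain that completes the usual type VI molecule, was low and did not pass. It had 80, 47 and 53 counts in Ctrl and 62, 59 and 58 in the MTA1 group, with the MTA1 libraries inside the Ctrl range. Its fold change was 0.04 ± 0.20 (adjusted p = 0.88), with a 95% interval of 0.783 to 1.35 for the fold, which holds 1 and excludes the 2.07-fold of COL6A1. COL6A5 had 2 counts in all and COL6A6 had 1.

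Members of the FACIT class went both ways. Of 8 listed, 5 were tested, 2 rose and 2 fell. Over all tested genes 29.5% rose and 28.6% fell, so the split is not read as a trait of this class. COL16A1, the most abundant of them, was at 144, 136 and 137.5 CPM in Ctrl and at 172, 176 and 172 CPM in the MTA1 group, a 1.25-fold rise (0.32 ± 0.040, adjusted p = 9.7e-07). COL12A1, which decorates type I fibrils under tension, was at 40.3, 38.4 and 38.5 CPM in Ctrl and at 68.8, 65.0 and 72.3 CPM in the MTA1 group, a 1.76-fold rise (0.81 ± 0.050, adjusted p = 3.3e-11).

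COL9A3, a chain of the cartilage collagen type IX, moved most clearly the other way. It was at 58.2, 62.9 and 60.5 CPM in Ctrl and at 24.5, 24.9 and 25.9 CPM in the MTA1 group. COL9A3 fell to 41.5% of the control level (-1.27 ± 0.051, adjusted p = 7.3e-14), the only fall of at least 2-fold among the 19 genes. Over all tested genes, a wider set that includes those under 2 CPM, 3.33% fell by at least 2-fold. TCFL5, which shares 0.93% of the exon bases of COL9A3 on the opposite strand, rose (0.35 ± 0.050). The partner chain COL9A2, with 10 to 29 counts per library, passed as lower too (-0.89 ± 0.31, adjusted p = 0.016), a call that ended with the DESeq2 Wald test (adjusted p = 0.054) and without Ctrl replicate 1 (0.065), MTA1 replicate 1 (0.071) or MTA1 replicate 3 (0.073). COL14A1 had 5 to 13 counts per library (-0.57 ± 0.37, adjusted p = 0.19). COL19A1, COL20A1 and COL21A1 had 3, 17 and 26 counts in all.

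Transmembrane collagens likewise went both ways. COL13A1, found at cell contacts and the neuromuscular junction, was at 32.1, 28.6 and 33.3 CPM in Ctrl and at 45.9, 42.04 and 46.3 CPM in the MTA1 group, a 1.43-fold rise (0.51 ± 0.059, adjusted p = 3.0e-07). COL23A1 was low but had distinct groups, with 20, 21 and 17 counts in Ctrl against 2, 4 and 2 in the MTA1 libraries. COL23A1 fell (-2.75 ± 0.50, adjusted p = 9.1e-06), and the ratio of the summed counts, scaled for depth, was 0.143 with an exact binomial 95% interval of 0.0589 to 0.301, for counting error only. It entered the test through the Ctrl libraries. COL17A1, a hemidesmosome collagen of epithelia, had 28, 19 and 28 counts in Ctrl and 27, 45 and 37 in the MTA1 group and did not pass (0.59 ± 0.25, adjusted p = 0.052), close to the threshold, with calls on either side of it among the alternatives. COL25A1 had 7 counts in all.

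The multiplexins, whose C-terminal pieces are released as endostatins, parted. COL18A1 was at 9.74, 9.56 and 9.94 CPM in Ctrl and at 15.0, 15.4 and 15.2 CPM in the MTA1 group, a 1.56-fold rise (0.64 ± 0.067, adjusted p = 6.9e-08). SLC19A1, the reduced folate carrier, shares 16.4% of the exon bases of COL18A1 on the opposite strand and rose too (0.79 ± 0.059), and its part in the result was not tested. COL15A1 had 69, 72 and 82 counts in Ctrl and 28, 38 and 42 in the MTA1 group. COL15A1 fell to 50.2% of the control level (-0.99 ± 0.19, adjusted p = 0.00010).

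The remaining chains were at the edge of detection. COL8A1, a chain of hexagonal networks in vessel walls and the cornea, had 11 to 21 counts per library (0.02 ± 0.32, adjusted p = 0.96), and COL8A2 had 4 counts in all. COL26A1 had 5 to 11 counts per library and COL28A1 had 0 to 5. The 12 genes not tested had 1 to 48 counts in total, and no difference in them was detectable at this depth. COL9A1, COL10A1 and COL22A1 have no row under these symbols in the count table, so they could not be analysed here.

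**Figure D3:**
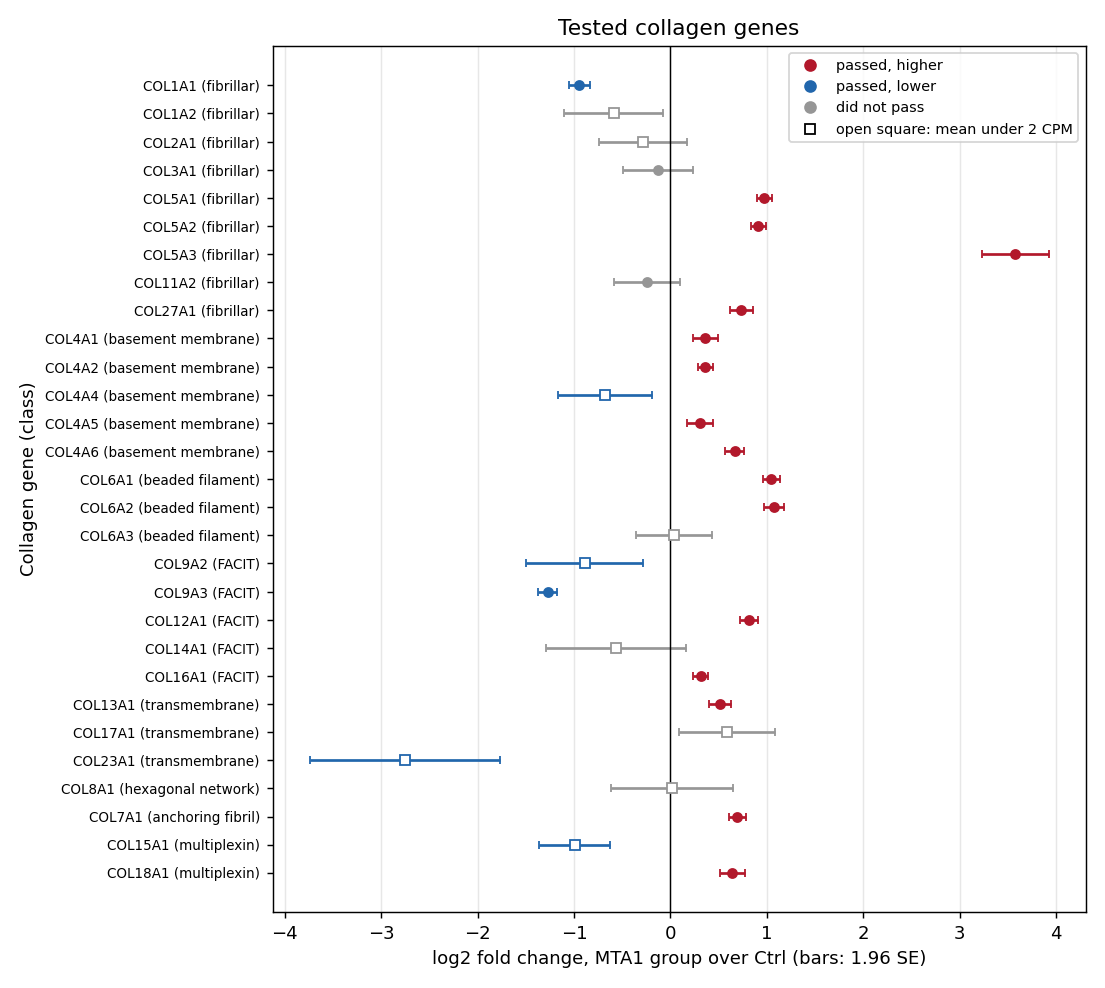
Log2 fold change of each of the 29 tested collagen genes (MTA1 group over Ctrl, x axis), with bars for the 95% interval, grouped by class and coloured by the edgeR call. Open squares are genes with a mean under 2 CPM. All 15 rises are of filled points, from 0.31 in COL4A5 to 3.58 in COL5A3, and 4 of the 6 falls are open squares with wide bars.

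The order of levels per length changed with these shifts. Among the Ctrl libraries the FPKM means ran COL7A1, COL5A2, COL16A1 (12.98 ± 0.329), COL9A3 (10.8 ± 0.501), COL6A2 (9.22 ± 0.255), COL6A1 (8.63 ± 0.461), COL5A1 (7.84 ± 0.204), COL4A2 (5.10 ± 0.0681) and COL1A1 (3.03 ± 0.118), and no neighbours in this run had overlapping libraries. In the MTA1 group COL7A1 (118.5 ± 5.92) and COL5A2 (27.8 ± 1.048) still led. They were followed by COL6A2 (20.4 ± 1.78) and COL6A1 (18.7 ± 0.663), whose libraries overlapped, then COL16A1 (17.0 ± 0.190), COL5A1 (16.1 ± 0.546), COL4A2 (6.87 ± 0.250) and COL9A3 (4.69 ± 0.168). COL9A3 moved from rank 4 to rank 8 and COL1A1 from 9 to 14. COL5A3 moved from rank 21 (0.133 ± 0.0503 FPKM) to rank 13 (1.67 ± 0.0321 FPKM), where its libraries overlapped those of COL1A1 (1.65 ± 0.06). FPKM carries the authors' depth scaling and no TMM factor.

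Ratios between chains of one type do not depend on how libraries are scaled. Over 11 pairs with both chains tested, the log2 ratio of counts within each library was compared between groups with the exact permutation test, 2-sided, for which 3 against 3 libraries cannot go below 0.10. The adjusted p over the 11 pairs was 0.18 for the 6 pairs whose libraries did not overlap between groups and higher for the rest, so none passed 0.05. The ratios are given as descriptions.

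COL4A1 against COL4A2 had a log2 ratio of -2.59 ± 0.11 in Ctrl and -2.59 ± 0.086 in the MTA1 group (SD, n = 3). COL6A1 against COL6A2 stood at -0.04 ± 0.068 and -0.07 ± 0.073. In both pairs the groups overlapped and the difference, 0.0007 and -0.02, was smaller than the SD.

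Other pairs lay apart. COL4A5 against COL4A6 went from -1.05 ± 0.095 to -1.41 ± 0.095, without overlap. COL5A1 against COL5A2 went from -0.24 ± 0.019 to -0.17 ± 0.012, a small shift but again without overlap. COL5A3 against COL5A1 went from -6.67 ± 0.61 to -3.99 ± 0.074. Against COL5A2 it went from -6.90 ± 0.61 to -4.17 ± 0.081. In FPKM, COL5A3 was 0.0161 of COL5A1 in Ctrl and 0.103 in the MTA1 group, so it stayed the minor chain of type V. COL6A3 against COL6A1 went from -4.92 ± 0.51 to -5.89 ± 0.091, and per length COL6A3 was 0.00825 and 0.00445 of COL6A1. COL1A1 was 29.5 times COL1A2 in Ctrl and 22.8 times in the MTA1 group in FPKM, with overlapping libraries.

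**Figure D4:**
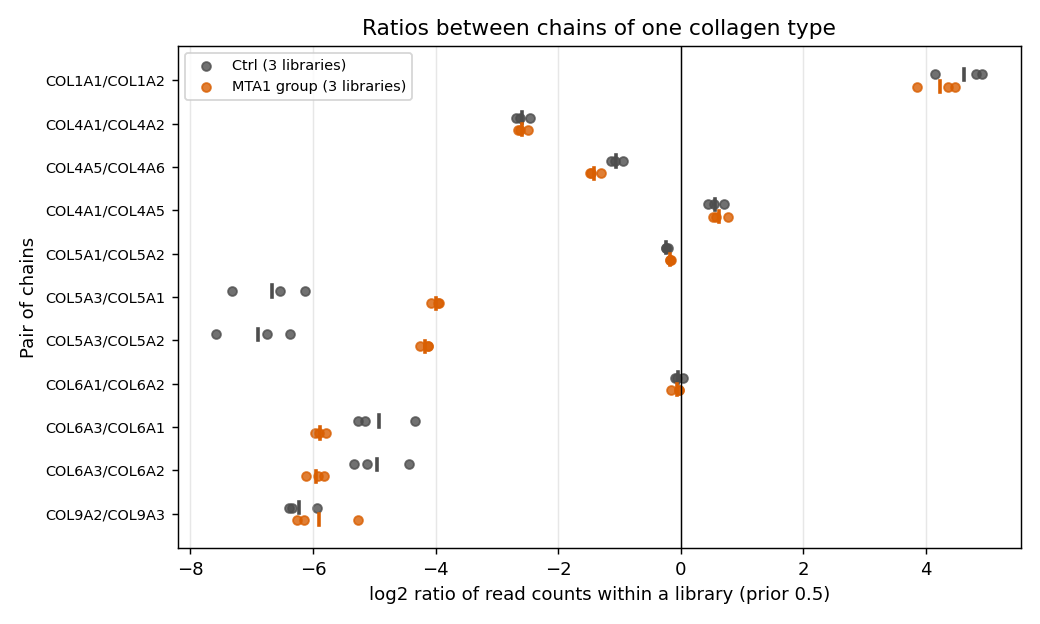
Log2 ratio of the read counts of 2 chains of one collagen type within each library (prior 0.5, x axis), for 11 pairs, with 1 dot per library and a short line at the mean of each group. COL4A1/COL4A2 and COL6A1/COL6A2 coincide between groups, and the 2 pairs with COL5A3 lie furthest apart, with differences between the means of 2.67 against COL5A1 and 2.74 against COL5A2.

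Genes that process, bind or break down collagen were mostly higher too. Of 76 listed, 64 were tested. Of these 43 rose and 6 fell, against 29.5% and 28.6% of all tested genes, and their median on the log2 scale was 0.44. Some entered the test through one group only. Of the 56 with a mean of 2 CPM or more over all libraries, 40 rose and 5 fell, against 33.9% and 32.1% of all genes at this level. ITGA2, one of these rises, reached that mean through the MTA1 group (1.49 CPM in Ctrl, 3.35 CPM in the MTA1 group). The steps inside the cell are described first. Of 13 tested prolyl and lysyl hydroxylases and glycosyltransferases with their partners, 11 rose, and of 12 genes of folding and export 11 rose and none fell. PLOD2, which hydroxylates lysines of the telopeptides, rose from 60.8 ± 0.946 to 115 ± 2.98 CPM (0.93 ± 0.042). P4HA1, a catalytic subunit of prolyl hydroxylase, rose (0.88 ± 0.046), while its relative P4HA3 fell (-0.61 ± 0.047). SERPINH1, the chaperone of the triple helix, rose from 115 ± 2.13 to 285 ± 0.886 CPM (1.30 ± 0.038), and CREB3L1, a transcription factor that activates collagen genes in bone, rose from 19.0 ± 1.11 to 42.7 ± 2.74 CPM (1.17 ± 0.060).

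The steps outside the cell were more mixed, in small counts that stand beside 29.5% higher and 28.6% lower over all tested genes. Among 5 tested genes of propeptide cleavage 3 rose and 1 fell, with the enhancer PCOLCE (0.78 ± 0.039) and the protease BMP1 (0.43 ± 0.050) up. TLL2, the fall, had 18, 14 and 11 counts in Ctrl against 2, 1 and 4 in the MTA1 libraries and entered the test through the Ctrl libraries (-2.51 ± 0.58). Of 6 cross-linking genes 3 rose and 1 fell. LOXL2 rose from 14.8 ± 1.17 to 44.0 ± 2.86 CPM (1.58 ± 0.064) and LOX by 2.16 ± 0.11 on the log2 scale, and PXDN, which cross-links type IV, fell (-0.41 ± 0.056). Of 7 fibril partners 4 rose and none fell, with DPT (2.67 ± 0.057) and BGN (1.19 ± 0.046) first. Of 7 receptors 4 rose and 1 fell. The integrin chain ITGB1 (0.90 ± 0.043) and DDR2, which binds fibrillar collagen (0.95 ± 0.050), rose, and DDR1 fell (-0.34 ± 0.059). Of 14 genes of breakdown and its inhibition 7 rose and 2 fell. CTSB (0.83 ± 0.040) and the collagenase MMP13 (1.38 ± 0.070) were up and the inhibitors TIMP3 (-1.09 ± 0.055) and TIMP2 (-0.11 ± 0.042) down. Among these rises, MMP1 (4, 3 and 4 counts in Ctrl, 38, 43 and 46 in the MTA1 group) and FAP entered the test through the MTA1 libraries.

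Some fibroblast markers were higher as well. Of 10 listed, 7 were tested. Of these, 3 rose (THY1, FAP and FBLN1), PDGFRB fell, and DCN, LUM and ACTA2 did not pass. Over all tested genes 29.5% rose and 28.6% fell, and counts this small are given as description. FAP, with 7, 12 and 12 counts in Ctrl and 51, 59 and 41 in the MTA1 group, entered the test through the MTA1 libraries. The summed level of the list was 236 to 240.4 CPM in Ctrl and 302 to 307 CPM in the MTA1 group. FBLN1 made up most of the level, at 176 ± 4.43 and 195 ± 2.16 CPM, and THY1 most of the difference, at 32.1 ± 2.39 and 77.0 ± 0.846 CPM (2.40-fold, edgeR adjusted p = 1.2e-13). PDGFRA, MFAP5 and POSTN stayed under 1 CPM in every library, and COL1A2, a chain abundant in fibroblasts, was not higher in any alternative. The 7 leukocyte markers listed summed to 15.9 to 17.2 CPM in Ctrl and 14.9 to 17.5 CPM in the MTA1 group, and 5 of them, with PTPRC at 7 counts in all, stayed under 1 CPM in every library. Of 6 endothelial markers none passed, with 66.8 to 69.8 and 68.6 to 76.2 CPM in sum. The part of other cells in the result was not tested, and in bulk RNA fewer cells with a message and less message per cell cannot be told apart.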

How the data were processed

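RNA of 6 PC-3 libraries was extracted with TRIzol, treated with DNase I, made into libraries with a stranded total RNA kit and sequenced on an Illumina NovaSeq, per the labels' protocols. The deposited counts are whole reads per gene without normalization, for 30651 genes, and the deposited FPKM values, for 29969 genes, were scaled by the authors for length and depth. For the aligner, the counter and its strand setting, the build and the annotation, the entry is: not given in the sources used here. DESeq2 appears in the submitters' processing notes with no stated role. Columns prefixed shMTA1 were assigned to the MTA1 group through that name, and NC columns to Ctrl by elimination.

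In R 4.3.3 with edgeR 4.0.16, filterByExpr left 15423 genes, with 99.9% of the counts. Counts were scaled by TMM, and edgeR's quasi-likelihood test compared the groups with no covariate. The p-values are 2-sided, were adjusted by Benjamini-Hochberg across every tested gene, and were called under 0.05. Between replicates the biological coefficient of variation was 4.45%. The count depth of 29909172 to 33849262 per library sets the precision. Standard errors come from the same fit, and 95% intervals are 1.96 SE. The code was tested on simulated data. Exon overlaps come from GENCODE v29 and were used for neighbours only.

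The collagen genes, their classes and the gene lists were chosen with earlier results of these data known. Values per library are given for collagen genes with a mean of 2 CPM or more, and from each processing list up to 2 called genes with the smallest p in each direction are named. Other genes were named after their values were seen. Alternatives were DESeq2 1.42.0 (size factors and Wald test), limma 3.58.1 (voom, and log2(FPKM + 0.1) and log2(FPKM + 1)), other scalings and filters, a replicate block, a length offset, a minimum fold of 1.2 and each library left out. Single values of some marker genes are not reported here.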

Additional observations from a re-analysis of the deposited data

How the results depend on the processing

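The counts of collagen genes called higher (15) and lower (6) stayed within 12 to 16 and 4 to 7 under all 19 alternatives, and those of the processing genes (43 and 6) within 34 to 46 and 4 to 6. Scaling by library size only moved the split over all genes from 4550 higher and 4404 lower to 5376 and 3574, and the FPKM scales moved it to 5043 and 3345 or 5070 and 3335. With a minimum fold of 1.2 the counts over all genes were 2385 and 2265. On log2(FPKM + 1) COL5A3 stood at 1.24 and COL23A1 at -0.14, where the added 1 is above every value of COL23A1 and the Ctrl values of COL5A3.

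Replicate numbers are shared between groups, but nothing in the labels pairs the libraries. Deviations of same-numbered libraries correlated at 0.12, -0.04 and 0.03, and not every library correlated best with its own number. With the replicate block 15 collagen genes were called higher and 7 lower, with COL1A2 added at -0.58 (adjusted p = 0.034), which was also called lower with no filter (0.033), a filter of 1 CPM (0.049), the length offset (0.033), and without Ctrl replicate 2 (0.022) or MTA1 replicate 1 (0.030).

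Directions turned only in genes that did not pass. COL8A1 stood at -0.0093 with limma-voom, -0.0065 and -0.00013 on log2(FPKM + 0.1) and log2(FPKM + 1), -0.059 with the length offset, and -0.28 to 0.21 with a library left out. COL6A3 stood at -0.046 with the length offset and at -0.13 to 0.33 with a library left out, and COL3A1 at -0.31 to 0.086. COL4A4 lost its call without Ctrl replicate 1 (-0.35), MTA1 replicate 1 (-0.58) or MTA1 replicate 2 (-0.64), and on log2(FPKM + 0.1) (-0.30), log2(FPKM + 1) (-0.06) and at a minimum fold of 1.2. Genes under 2 CPM rest on few reads, and their values are limited by depth.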

Other observations

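Ctrl replicate 1 stood apart from the other Ctrl libraries in several collagen genes of low level, a pattern chosen after the values were seen. It had the most reads of all 6 libraries for COL1A2 (57, against 32 and 37 in Ctrl replicates 2 and 3), COL3A1 (98 against 59 and 79), COL4A4 (73 against 44 and 42) and COL6A3 (80 against 47 and 53), and the fewest for COL5A3 (19 against 36 and 46). Without it COL6A3 stood at 0.33 (edgeR adjusted p = 0.17) and COL1A2 at -0.28 (0.39), and COL5A3 still rose, by 3.31 on the log2 scale. The calls of the 17 collagen genes that passed at 2 CPM or more were the same without it.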
